A study of Mus musculus with 12 samples.

Results

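The 5 genes for the receptors of sphingosine-1-phosphate (S1P), S1pr1 to S1pr5, were followed through 12 lists of open chromatin peaks from sorted mouse medulloblastoma cells. A peak belonged to a receptor gene when its midpoint lay inside the gene's mm10 span, or within 100 kb of it with no other protein-coding gene nearer. Of 218906 peaks in all lists, 48 met this rule, and they merged into 11 of the 44242 regions of the whole series. All 5 genes were among the 21627 protein-coding genes of the annotation. S1pr1 held 6 regions, S1pr2 held 2, S1pr3 held 1, S1pr5 held 2 and S1pr4 held 0.

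S1P is a lipid made from sphingosine inside cells, exported, and sensed at the cell surface by 5 G protein-coupled receptors. S1PR1 couples to Gi proteins and is known for its part in vessel stability and lymphocyte egress. S1PR2 and S1PR3 couple more widely, to Gi, Gq and G12/13 proteins, and S1PR2 is known for restraining cell migration. S1PR4 is mainly a receptor of lymphoid cells, and S1PR5 is found on oligodendrocytes and natural killer cells.

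The cells came from endpoint tumours of the Sonic hedgehog subgroup in untreated Ptch1+/- mice, a genotype that all groups shared. Ptch1 encodes the receptor that restrains hedgehog signalling, and this tumour arises in the cerebellum. There were 4 libraries of SOX2+ cells, the stem-like compartment marked by eGFP, against 4 of SOX2- cells, the tumour bulk. From a further sort of SOX2+ cells by RFP there were 2 libraries of SOX2+/MKI67+ cells, which cycle, against 2 of SOX2+/MKI67- cells, which do not. ATAC-seq uses a transposase to tag accessible DNA; here 35000 to 50000 sorted cells went into each reaction. The labels give neither the age of the mice, nor the reporter constructs, nor whether replicates came from separate animals, so p-values measure the spread between these libraries, which may be technical.

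Peaks per list numbered 16788, 9377, 19636 and 25272 for SOX2+ replicates 1 to 4, against 7009, 26206, 12660 and 21682 for SOX2- replicates 1 to 4. They numbered 18738 and 24694 for SOX2+/MKI67+ cells, against 19229 and 17615 for SOX2+/MKI67- cells. Read depth is unknown, and a peak missing from a list may lie just under the threshold of that list. The Sox2 locus, which checks the sort, had 2 to 6 peaks per library in SOX2+ cells, against 0 to 1 peaks in SOX2- cells. In the second sort it had 3 and 5 peaks in SOX2+/MKI67+ cells, against 3 and 6 peaks in SOX2+/MKI67- cells.

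**Figure D1:**
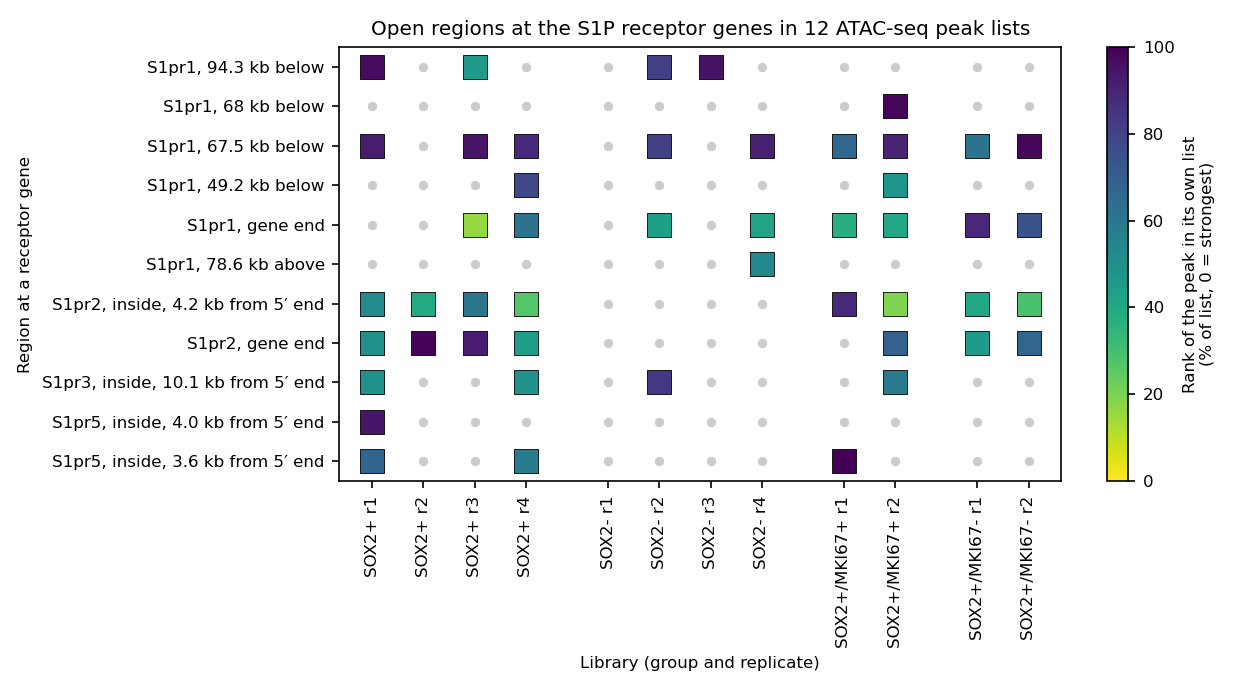
Each row is a region at a receptor gene and each column a library. A square marks a listed peak, coloured by its rank within its own list in percent (0 is the strongest), and a grey dot marks a region with no peak. Both S1pr2 rows are filled in 4 of 4 SOX2+ libraries, against 0 of 4 SOX2- libraries, while 3 of the 6 S1pr1 rows are filled in both groups.

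S1pr2 had a listed peak in every library of SOX2+ cells and in no library of SOX2- cells. Both of its regions had their midpoint inside the gene on chromosome 9, at chr9:20972178-20972977 and at chr9:20976490-20976938 (mm10). S1pr2 spans chr9:20965952-20976793 and is read from the minus strand, so the second region covers the 5′ end and the first is centred 4.2 kb downstream of it. The gene was chosen because of its difference between SOX2+ and SOX2- cells, so these values are a description and no test is given for them.

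S1pr2 had 2, 2, 2 and 2 peaks in SOX2+ replicates 1 to 4, against 0, 0, 0 and 0 peaks in SOX2- replicates 1 to 4. It had 1 and 2 peaks in SOX2+/MKI67+ replicates 1 and 2, against 2 and 2 peaks in SOX2+/MKI67- replicates 1 and 2. Thus all 8 libraries of SOX2+ cells from both sorts listed the gene, and the 4 SOX2- libraries did not. The 4 MKI67 libraries were not used in choosing the gene, but they come from another sort, and sort and group cannot be told apart when they are set against SOX2- cells. Among the 14182 genes listed by 2 or more libraries, 60 (0.423%) were listed in all 8 libraries of SOX2+ cells and in none of the SOX2- libraries. A peak in every SOX2+ and no SOX2- library was seen in 0.508% of genes and the opposite in 0.0846%, and of the 5 receptor genes S1pr2 alone was in the first class and 0 in the opposite one. The mean was 2.0 ± 0 peaks in SOX2+ cells and 0 ± 0 peaks in SOX2- cells (SD, n = 4 each), a fitted difference of 1.58 on the log2(peaks per gene + 1) scale (SE 0.106). S1pr2 did not vary within either group, so this SE rests on the spread of other genes and of its MKI67 libraries. The difference depends on the pseudocount and is no bound, since SOX2- cells are listed at 0.

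The region 4.2 kb into S1pr2 was the more constant of the pair. Its peaks ranked at 52.5%, 39.1%, 60.4% and 26.8% of the list, counted from the strongest, in SOX2+ replicates 1 to 4. They ranked at 88.5% and 19.2% in SOX2+/MKI67+ replicates 1 and 2, against 39.9% and 28.7% in SOX2+/MKI67- replicates 1 and 2. The ranks thus ran from 19.2% to 88.5% of the list, with the weakest in SOX2+/MKI67+ replicate 1. The summits of the 8 peaks lay within 126 bp of one another, and their fold over the local background, as the authors' peak caller gave it, was 3.21 to 5.53.

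The region at the 5′ end was listed in 4 of 4 SOX2+ libraries, against 0 of 4 SOX2- libraries, and in 1 of 2 SOX2+/MKI67+ and 2 of 2 SOX2+/MKI67- libraries. Its peaks ranked at 49.7%, 98.9%, 92.5% and 44.4% of the list in SOX2+ replicates 1 to 4. In SOX2+/MKI67+ replicate 2 it ranked at 69.3%, against 45.6% and 67.6% in SOX2+/MKI67- replicates 1 and 2. In SOX2+ replicates 2 and 3 these peaks were close to the end of the list. The 7 summits were spread over 326 bp.

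Listing of S1pr2 did not follow the length of the list. SOX2+ replicate 2, with 9377 peaks, listed both regions, and SOX2- replicate 2, the longest list of all with 26206 peaks, listed neither. With only the 7009 strongest peaks of every list, S1pr2 was listed in 2 of 4 SOX2+ libraries (replicates 2 and 4), against 0 of 4 SOX2- libraries. On that setting 1 of 2 SOX2+/MKI67+ libraries listed it, against 1 of 2 SOX2+/MKI67- libraries. The log2 difference between SOX2+ and SOX2- cells was then 0.50 in place of 1.58.

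**Figure D2:**
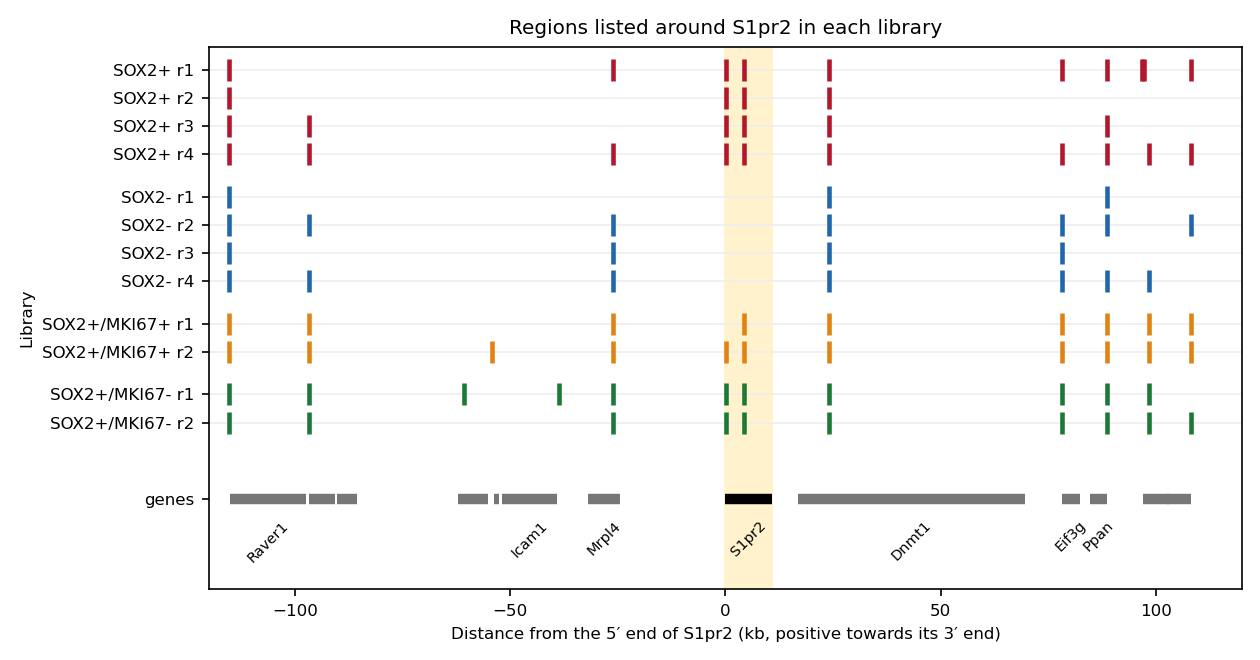
Horizontal position is the distance from the 5′ end of S1pr2 in kb, positive towards the 3′ end, and each line is a library, with a tick for each listed region. The shaded band is the S1pr2 span and grey bars are neighbouring protein-coding genes. Inside the band SOX2- libraries hold 0 ticks, while the nearest tick beyond its 3′ end, given to Dnmt1, is present in 12 of 12 libraries.

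Within 100 kb of S1pr2 there were 12 regions given to other genes, of which 0 were in the class found in 3 or 4 SOX2+ libraries but 0 SOX2- libraries. This class held 4.1% of all regions, so 0 of 12 is near that share and nothing is read from it. The nearest on one side, 13.2 kb from the gene and given to Dnmt1, the maintenance DNA methyltransferase gene, was listed in 12 of 12 libraries. The nearest on the other side, 26.2 kb away and given to the mitochondrial ribosomal protein gene Mrpl4, was listed in 2 of 4 SOX2+ libraries, against 3 of 4 SOX2- libraries, and in 2 of 2 libraries of each MKI67 group. The regions of the adhesion molecule genes Icam1, Icam4 and Icam5 were each listed in 1 library, all of the MKI67 sort.

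Over the whole series, regions found in 3 or 4 SOX2+ libraries but 0 SOX2- libraries made up 4.1% of all regions. At the receptor genes 2 of 11 regions were in this class, both at S1pr2, and since S1pr2 was chosen on this comparison nothing is read from the share. The opposite class, found in 3 or 4 SOX2- libraries but 0 SOX2+ libraries, held 1.54% of all regions and 0 of the 11. Regions in all 8 libraries of SOX2+ cells and 0 SOX2- libraries made up 1.4%, and those in at least 7 of the 8 made up 2.7%. The region 4.2 kb into S1pr2 was in the first of these classes and both S1pr2 regions were in the second.

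The start-site sequences of 4 receptor genes were available from RefSeq (GRCm38.p6, the coordinates of mm10), from 250 bases before to 50 bases after the first base of the gene. That of S1pr2 is shown because a listed region covers part of it, and those of S1pr3 and S1pr5 because these genes had a region inside the gene and none at the start. Capitals mark every match to 1 of 8 motifs searched on both strands.
S1pr2, chr9:20976744-20977043, minus strand: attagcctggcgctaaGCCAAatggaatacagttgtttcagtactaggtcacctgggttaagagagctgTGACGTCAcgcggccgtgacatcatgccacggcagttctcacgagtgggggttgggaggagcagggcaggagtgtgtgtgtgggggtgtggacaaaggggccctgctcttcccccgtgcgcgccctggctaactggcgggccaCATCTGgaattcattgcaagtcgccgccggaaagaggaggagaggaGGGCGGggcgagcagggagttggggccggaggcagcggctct
S1pr3, chr13:51408368-51408667, plus strand: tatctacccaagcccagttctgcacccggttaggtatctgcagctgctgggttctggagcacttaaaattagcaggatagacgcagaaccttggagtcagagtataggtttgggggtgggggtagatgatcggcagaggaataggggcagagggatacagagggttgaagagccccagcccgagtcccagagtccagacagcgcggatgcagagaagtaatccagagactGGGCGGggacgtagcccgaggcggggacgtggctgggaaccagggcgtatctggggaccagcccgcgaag
S1pr5, chr9:21248394-21248693, minus strand: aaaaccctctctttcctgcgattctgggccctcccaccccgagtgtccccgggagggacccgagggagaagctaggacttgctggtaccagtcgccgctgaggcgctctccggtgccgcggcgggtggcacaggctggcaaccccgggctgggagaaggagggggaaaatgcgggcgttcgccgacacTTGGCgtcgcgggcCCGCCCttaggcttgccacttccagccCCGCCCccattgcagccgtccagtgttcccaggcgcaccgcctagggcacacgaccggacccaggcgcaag

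The motifs were AP-1 (TGANTCA), SOX (AACAAT), NFI (TTGGC), E-box (CAGATG), GLI core (CCACCCA), CRE core (ACGTCA), the CCAAT box, searched by those letters, and GC box (GGGCGG). The listed region at the 5′ end of S1pr2 covers 195 of the 300 bases shown. It holds an E-box match 38 to 33 bases before the start and a GC box match 8 to 13 bases after it. That region is merged over libraries, and the peak of SOX2+ replicate 3 ended at chr9:20976768, short of both matches. The peak of SOX2+/MKI67- replicate 2 ended at chr9:20976826 and held only the GC box match in full. Outside that region, S1pr2 has overlapping CRE core matches on both strands and an NFI match. The CRE core was found in 7.5% of 32851 start-site windows of the same length, the E-box in 17.2%, the GC box in 35.7% and NFI in 46.7%.

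S1pr3 had a GC box match, and S1pr5 had 2 GC box matches and an NFI match. S1pr4, not printed, had an NFI match and a GLI core match, and the GLI core was found in 9.3% of all windows. AP-1 (7.8% of windows), SOX (10.7%) and CCAAT box (37.4%) letters were not in these 4 windows. GC content was 62.0% at S1pr2, 59.0% at S1pr3, 41.0% at S1pr4 and 69.3% at S1pr5, against a median of 52.7% over all windows. The GC-richest of the 4 windows, that of S1pr5, carried 0 regions in 12 libraries, and that of S1pr2, the next, carried 1. Such matches are letters in a window and not evidence that a factor was bound.

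S1pr1, the Gi-coupled receptor, had open regions in both SOX2+ and SOX2- cells. Its gene, chr3:115710433-115715055, lies far from other protein-coding genes, so that 191.2 kb of sequence counted as its own, against 26.1 kb for S1pr2, 114.5 kb for S1pr3, 15.7 kb for S1pr5 and 3.9 kb for S1pr4. S1pr1 had 2, 0, 3 and 3 peaks in SOX2+ replicates 1 to 4, against 0, 3, 1 and 3 peaks in SOX2- replicates 1 to 4. It had 2 and 4 peaks in SOX2+/MKI67+ replicates 1 and 2, against 2 and 2 peaks in SOX2+/MKI67- replicates 1 and 2. The groups of the first sort overlapped over their whole range, and the libraries at 0 were the shortest list of each group. The means were 2.0 ± 1.41 in SOX2+ cells and 1.75 ± 1.5 in SOX2- cells (SD, n = 4 each), a fitted log2 difference of -0.05 (SE 0.166). Its sign turned without SOX2+ replicate 2 (0.134), without SOX2- replicate 1 (0.011) and with equal peak numbers (0.25).

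The region at the gene end, chr3:115714772-115715460, was listed in 2 of 4 SOX2+ libraries, against 2 of 4 SOX2- libraries, and in 2 of 2 libraries of each MKI67 group. It was present in all 8 lists of 17615 peaks or more and absent from the 4 lists of 16788 peaks or fewer. Its strongest peak, at 15.6% of the list, was in SOX2+ replicate 3, and its weakest, at 88.6%, in SOX2+/MKI67- replicate 1. In SOX2- replicates 2 and 4 it ranked at 43.9% and 42.0%.

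A region 67.5 kb below the S1pr1 span, chr3:115642649-115643122, was the most widely listed of all 11, in 3 of 4 SOX2+ libraries, against 2 of 4 SOX2- libraries, and further in each of the 4 MKI67 libraries. It too followed list length, being present in all 9 lists of 16788 peaks or more and absent from the 3 shorter ones. Its ranks were 61.7% to 98.1% of the list, so it was among the weaker peaks wherever it was listed. The other 4 S1pr1 regions were each in 1 to 4 libraries. The outermost, 94.3 kb below the span and just inside the limit of 100 kb, was in 2 of 4 SOX2+ libraries, against 2 of 4 SOX2- libraries, and in 0 of 4 MKI67 libraries. Just outside the limit, a region 103.8 kb from S1pr3 that was given to Shc3 was in 2 of 4 SOX2+, 0 of 4 SOX2-, 1 of 2 SOX2+/MKI67+ and 2 of 2 SOX2+/MKI67- libraries.

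**Figure D3:**
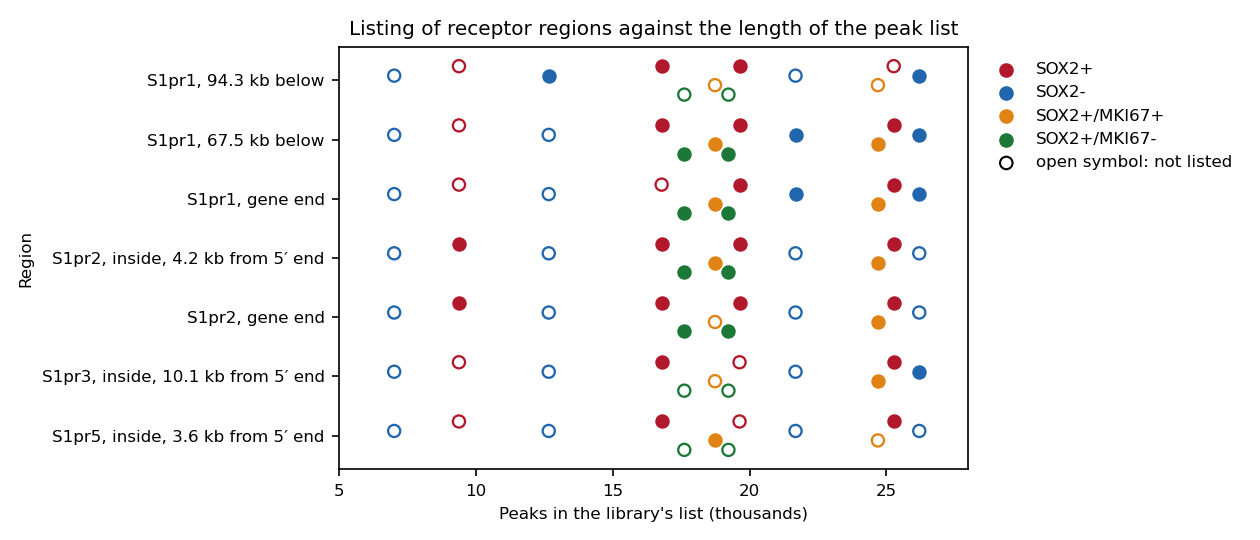
Horizontal position is the number of peaks in a library's list, and each row is a receptor region listed in at least 3 libraries. A filled symbol marks a library that lists the region, an open symbol one that does not, and colour gives the group. The gene-end row of S1pr1 is filled in all 8 lists of 17615 peaks or more, whereas the S1pr2 rows are open in SOX2- lists of 7009 to 26206 peaks and filled in a SOX2+ list of 9377.

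S1pr3, which shares the wide G protein coupling of S1PR2, had 1 region, chr13:51418458-51418941, inside the gene and 10.1 kb downstream of its 5′ end. It was listed in SOX2+ replicates 1 and 4 and in SOX2- replicate 2, and further in 1 of 2 SOX2+/MKI67+ and 0 of 2 SOX2+/MKI67- libraries. The 3 longest lists of the series were among the 4 that held it. Its ranks were 49.8% and 48.7% in the SOX2+ libraries, 84.0% in the SOX2- library and 59.2% in the SOX2+/MKI67+ library. The fitted log2 difference between SOX2+ and SOX2- cells was 0.18 (SE 0.317), within the spread of replicates, and -0.032 without SOX2- replicate 4.

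S1pr5, the receptor of oligodendrocytes and natural killer cells, lies 266.1 kb from S1pr2 on chromosome 9 (chr9:21242917-21248443). It had 2, 0, 0 and 1 peaks in SOX2+ replicates 1 to 4, against 0 peaks in each SOX2- library. It had 1 and 0 peaks in SOX2+/MKI67+ replicates 1 and 2, against 0 and 0 peaks in SOX2+/MKI67- replicates 1 and 2. All of these were inside the gene. The region chr9:21244613-21245004 was listed in SOX2+ replicates 1 and 4 and in SOX2+/MKI67+ replicate 1, and chr9:21244270-21244518 in SOX2+ replicate 1 only. Ranks were 58.5% to 99.6% of the list, the last in SOX2+/MKI67+ replicate 1. The groups overlapped at 0, and the fitted log2 difference between SOX2+ and SOX2- cells was 0.63 (SE 0.393), and 0.315 without SOX2+ replicate 1.

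S1pr4, the lymphoid receptor at chr10:81497745-81500137, was listed at 0 in 12 of 12 libraries and entered no fit. Only 3.9 kb counted as its own, since Ncln and Gna15 lie close on either side. A region 1.2 kb from the gene, given to Ncln, was listed in 12 of 12 libraries, and 1 region 2.8 kb away on the other side, given to Gna15, in 1 library. Peaks of a list that fall between close genes go to the nearer one.

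In order of peaks per library within SOX2+ cells, S1pr1 and S1pr2 came first with 2.0 each, then S1pr5 with 0.75, S1pr3 with 0.5 and S1pr4 with 0. In SOX2- cells S1pr1 had 1.75, S1pr3 had 0.25 and the others 0. The stretch of sequence counted differs between these genes, so the order of genes does not compare like with like. Between groups the lengths of the lists differ, and these means are not scaled to them.

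Cycling and non-cycling SOX2+ cells were compared by limma on log2(peaks per gene + 1) in all 12 libraries, with Benjamini-Hochberg adjustment across the 14182 genes tested. The choice of the receptor genes did not use this comparison. In it 0.212% of genes passed an adjusted p of 0.05, 0.12% higher and 0.0917% lower, and 0 of the 4 receptor genes tested did, nor did any at an unadjusted p of 0.05. S1pr2 had a mean of 1.5 ± 0.707 peaks in SOX2+/MKI67+ cells and 2.0 ± 0 peaks in SOX2+/MKI67- cells (SD, n = 2 each). The log2 difference was -0.30 (95% interval -0.65 to 0.05, limma adjusted p = 1.0, unadjusted p = 0.0824), lower in 1 of 2 libraries. S1pr2 varied only within SOX2+/MKI67+ cells, so this interval rests on those 2 libraries and on the spread of other genes. The difference comes from the 5′ end region, missing from SOX2+/MKI67+ replicate 1. The other S1pr2 region was weak in that library, with a −log10 q of 3.78. Without SOX2+/MKI67+ replicate 2 the difference was -0.59, and without SOX2+/MKI67+ replicate 1 it was 0. Each of these fits left a single SOX2+/MKI67+ library, and S1pr2 then did not vary within any group. Only the differences are therefore given, and no test is read from them.

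The other receptor genes did not pass the test either. S1pr1 had a log2 difference of 0.09 (95% interval -0.46 to 0.63, limma adjusted p = 1.0), S1pr3 of 0.39 (-0.65 to 1.44) and S1pr5 of 0.47 (-0.82 to 1.77), both also with a limma adjusted p of 1.0. These intervals are wide, and the test does not show that the groups are alike. Regions in 2 of 2 SOX2+/MKI67+ and 0 of 2 SOX2+/MKI67- libraries made up 4.03% of all regions and the opposite class 0.972%, and 0 of the 11 receptor regions were in either. By gene, 2.69% had a peak in both SOX2+/MKI67+ and neither SOX2+/MKI67- library and 0.677% the opposite, with 0 receptor genes in either class.

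No gene on a list of those that make, move and answer S1P passed the test in either comparison. So few genes of the whole series passed that 0 is near their share, and nothing is read from it. The list held 64 genes in 6 groups, of which 57 were listed by enough libraries to be tested by limma. Between SOX2+ and SOX2- cells, where 0.86% of all genes passed (0.74% higher, 0.12% lower), 0 of the 57 did. At an unadjusted p of 0.05, 5 (8.77%) were higher and 7 (12.3%) lower, against 6.85% higher and 6.44% lower of all genes. Of the 57, 43.9% had a positive log2 difference, against 43.2% of all genes tested, and the median was 0 in both. Between SOX2+/MKI67+ and SOX2+/MKI67- cells, where 0.212% of all genes passed, 0 of the 57 did. At an unadjusted p of 0.05, 1 (1.75%) was higher and 1 (1.75%) lower, against 3.05% higher and 1.59% lower of all genes, and the median log2 difference was -0.052 against -0.017 over all genes.

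Among the genes of synthesis and breakdown, 6 of 8 were tested between SOX2+ and SOX2- cells and none passed. The sphingosine kinase gene Sphk1 was listed at 0 in 12 of 12 libraries, whereas the other kinase gene, Sphk2, had 1 peak in 11 of 12 (log2 difference -0.29, limma adjusted p = 0.611). Sgpl1, the lyase that degrades S1P, had a log2 difference of 0.09 (limma adjusted p = 1.0). The phosphatase gene Sgpp1 had 1 peak in every library of the SOX2 sort (-0.002, limma adjusted p = 1.0).

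Sgpp2, the other S1P phosphatase gene, had 0, 0, 1 and 1 peaks in SOX2+ replicates 1 to 4, against 1, 2, 1 and 2 peaks in SOX2- replicates 1 to 4 (log2 difference -0.87, limma adjusted p = 0.105). The SOX2+ and SOX2- libraries thus overlapped at 1 peak. It had 1 and 1 peaks in SOX2+/MKI67+ cells, against 0 and 0 peaks in SOX2+/MKI67- cells (0.89, limma adjusted p = 0.757). Plpp3, a lipid phosphatase that acts on S1P outside cells, had 1, 1, 3 and 6 peaks in SOX2+ replicates 1 to 4, against 0, 3, 1 and 2 peaks in SOX2- replicates 1 to 4 (0.39, limma adjusted p = 0.611).

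Of the export and carrier genes 5 of 6 were tested and none passed. Spns2, the exporter of S1P, had 1 peak in each SOX2+ library, against 0, 2, 1 and 1 peaks in SOX2- replicates 1 to 4 (log2 difference 0.03, limma adjusted p = 1.0). Mfsd2b, the exporter of red cells and platelets, was listed in 1 of 4 SOX2+ libraries, against 1 of 4 SOX2- libraries (-0.045, limma adjusted p = 1.0). Apom, the S1P carrier of plasma lipoproteins, was listed at 0 in 12 of 12 libraries.

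The remaining groups were ceramide and sphingosine supply (19 of 23 tested, median log2 difference 0 between SOX2+ and SOX2- cells), G proteins and effectors (14 of 14, -0.02), receptor desensitisation and control (5 of 5, 0.157), and the related lysophosphatidic acid and cannabinoid receptors (8 of 8, -0.189). In each, 0 members passed in either comparison (limma). Smallest adjusted p-values were 0.173, 0.223, 0.177 and 0.145 in that order.

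**Figure D4:**
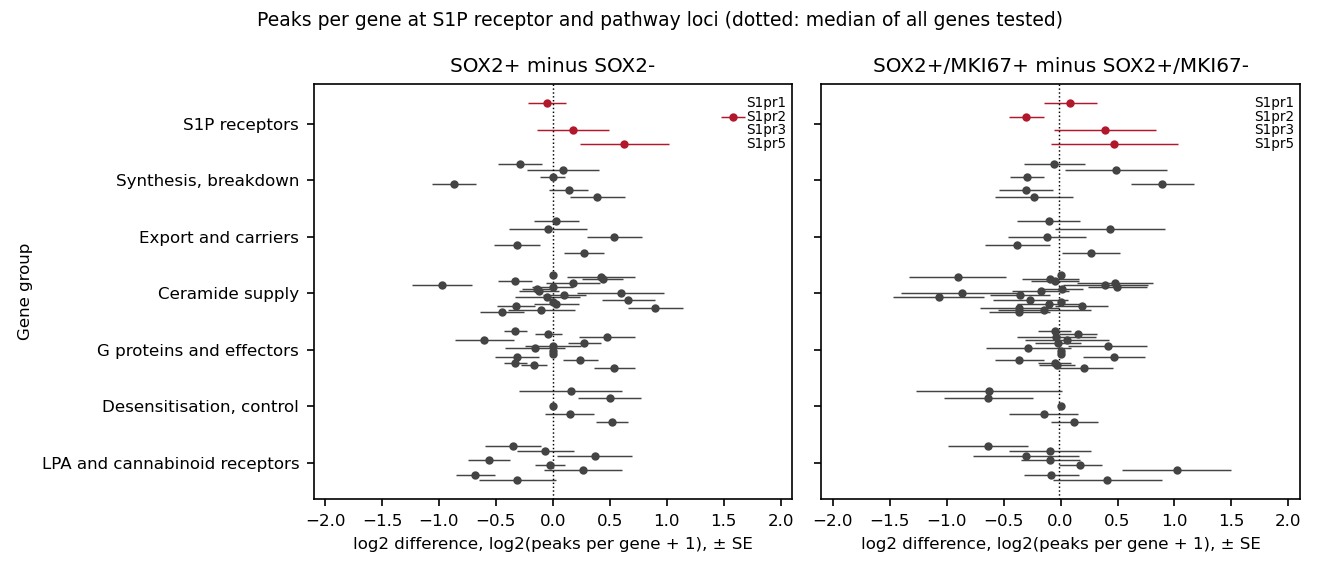
Points are log2 differences of log2(peaks per gene + 1) with SE bars from limma, for the 4 receptor genes tested (red, named at the right edge from top to bottom) and 57 pathway genes (grey) in 6 groups, SOX2+ minus SOX2- on the left and SOX2+/MKI67+ minus SOX2+/MKI67- on the right. S1pr2 stands at 1.58 on the left and at -0.30 on the right, and pathway genes lie between -0.97 and 0.90 on the left.

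The genes whose peaks over the 12 libraries were most like those of S1pr2, by Euclidean distance on log2(peaks per gene + 1), were Mt1 (distance 0.717), Cyp2j9 and Susd5 (0.827 each), and 4930432M17Rik and Nkx2-2 (0.926 each). Their peak numbers equalled those of S1pr2 in 10, 10, 10, 9 and 9 of 12 libraries, and all were listed at 0 in the 4 SOX2- libraries. Both follow from choosing them by closeness to S1pr2 in the same libraries and are no further result. Mt1 encodes a metallothionein and Nkx2-2 a transcription factor of ventral and oligodendrocyte progenitors. They lie on chromosomes 8, 4, 9, 3 and 2.

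Markers of cell types known to use these receptors were counted beside the result. Astrocyte markers (6 genes) summed to 2 to 15 peaks per library in SOX2+ cells, against 0 to 9 in SOX2- cells. Aldh1l1, S100b and Aqp4 were at 0 in SOX2- cells, whereas Gfap, Slc1a3 and Gja1 had peaks in both groups. None of the 6 passed between SOX2+ and SOX2- cells (limma adjusted p of 0.11 or more). Oligodendrocyte markers (6 genes) summed to 4 to 11 against 3 to 8 peaks, with Mag at 0 in every library. Lymphocyte and natural killer markers summed to 2 to 6 against 1 to 4 peaks, and the defining genes Cd3e, Cd3g, Cd79a and Nkg7 were at 0 in all 12 libraries. Klrb1c, a natural killer receptor gene, was listed in all 12 libraries with 1 to 4 peaks. Ptprc, the pan-leukocyte gene, had 2, 1, 2 and 2 peaks in SOX2+ replicates 1 to 4, against 0, 0, 0 and 2 peaks in SOX2- replicates 1 to 4 (log2 difference 0.98, limma adjusted p = 0.237, unadjusted p = 0.0189).

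Endothelial markers (8 genes) summed to 2 to 9 against 0 to 15 peaks in SOX2+ and SOX2- cells, and mural markers (5 genes) to 0 to 2 against 0 to 1. Microglia and macrophage markers (6 genes) summed to 0 to 2 against 0 to 1 peaks, and Cx3cr1, Csf1r, Aif1 and Itgam were at 0 in all 12 libraries. Granule neuron lineage markers (6 genes) summed to 0 to 11 peaks in SOX2+ cells, against 4 to 23 in SOX2- cells. These sums overlapped between SOX2+ and SOX2- cells, but they are not scaled to list length. Per 10000 peaks of the list, the granule neuron lineage markers came to 0 to 5.60 in SOX2+ cells, against 5.71 to 8.78 in SOX2- cells, which did not overlap, while the other 6 lists overlapped. Nhlh1 of that list had 0 peaks in each SOX2+ library, against 1, 3, 1 and 2 peaks in SOX2- replicates 1 to 4 (log2 difference -1.46, limma adjusted p = 0.0285). Atoh1, Barhl1, Zic1, Neurod1 and Rbfox3 of the list did not pass (limma adjusted p of 0.179 or more). Zic1 had the higher mean in SOX2+ cells, 1.5 against 1.0 peaks (log2 difference -0.047). In SOX2+/MKI67+ cells, against SOX2+/MKI67- cells, astrocyte markers summed to 10 to 17 against 8 to 9 peaks and oligodendrocyte markers to 6 to 9 against 7 to 8. Lymphocyte and natural killer markers summed there to 5 to 6 in both groups, endothelial markers to 7 against 4 to 7, mural markers to 1 to 3 against 2 to 4, microglia and macrophage markers to 0 to 1 in both groups, and granule neuron lineage markers to 9 against 3 to 7. Per 10000 peaks, SOX2+/MKI67+ and SOX2+/MKI67- cells did not overlap for astrocyte markers (5.34 to 6.88 against 4.16 to 5.11) or lymphocyte and natural killer markers (2.43 to 2.67 against 2.84 to 3.12). Granule neuron lineage markers (3.645 to 4.80 against 1.70 to 3.64) all but touched, and the other lists overlapped. With 2 libraries in each group values separate easily without any difference, so nothing is read from these gaps. The part of these markers in the listing of receptor regions was not tested. In sorted bulk cells, a peak in more cells and a more open site per cell cannot be told apart.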

How the data were processed

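ATAC-seq libraries (single-end reads of 50 bp) were given as 12 peak lists. Bowtie2, MACS2 and mm10 are named, per the submitters' processing notes, and each library has its own list. Tool versions and settings: not given in the sources used here. Each deposited list holds, per peak, the authors' score, fold ratio over the local background, −log10 p-value, −log10 q-value and summit. The score is the −log10 q-value on a larger whole-number scale. Lists were used as deposited, and ranks follow the −log10 q-value within a list.

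Overlapping peaks (at least 1 bp) were merged into regions. Peaks inside several gene spans went to the shortest. Genes (RefSeq, GRCm38.p6) listed by 2 or more libraries were tested with limma 3.58.1 (eBayes with trend, R 4.3.3) on log2(peaks per gene + 1), fitting 4 groups and log10 list length, with an adjusted p of 0.05 as the threshold. The fit was tested on simulated data.

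The receptor genes, lists and tests were chosen with earlier results of these data known. The text names all receptor genes, every pathway gene past the threshold, 9 genes of S1P turnover and transport, and the 5 genes most like S1pr2. Alternatives changed the peaks used, window, filter, pseudocount, covariate, block and libraries. One gene of the lymphocyte marker list is not reported here by itself.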

Additional observations from a re-analysis of the deposited data

Results flagged for a closer look

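In SOX2- cells S1pr3 was listed in 1 of 4 libraries, replicate 2, so that this library stood apart from the other three by the whole range of the group (gap over range 1.0). It is the longest list of the series, with 26206 peaks. For continuous values such a test picks out about 1 in 20 groups when nothing is unusual. With 0 or 1 peak per library that rate does not hold, since any group with 1 of 4 libraries listed is flagged. The flag says no more than that a single list held the region.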

How the results depend on the processing

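The regions exclusive to SOX2+ cells at receptor genes numbered 2, and 2 with summits within 200 bp or with a window of 50 kb. They also numbered 2 with every library of the sort left out in turn. That outcome was fixed beforehand, as both were in 4 of 4 SOX2+ and 0 of 4 SOX2- libraries. They numbered 1 with a −log10 q of at least 5 and 0 with equal peak numbers. In the MKI67 sort, leaving out 1 library left 0 to 3 regions exclusive to SOX2+/MKI67+ cells and 0 to 1 exclusive to SOX2+/MKI67- cells, against 0 and 0 with all libraries. There were 3 without SOX2+/MKI67+ replicate 1, and 1 of each class without SOX2+/MKI67+ replicate 2. The S1pr2 log2 difference between SOX2+ and SOX2- cells was 1.56 to 1.60 with any library left out, 1.24 with the stricter threshold, 0.50 with equal peak numbers and 2.32 with a pseudocount of 0.5. S1pr2 did not vary within SOX2+ or SOX2- cells, so leaving a library out could hardly move its difference.

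Genes past the threshold between SOX2+ and SOX2- cells numbered 122 (105 higher, 17 lower). With equal peak numbers they were 227 (146 higher, 81 lower), and 80 to 194 with a library left out (SOX2+ replicate 1 gave 80 when left out, SOX2+ replicate 2 gave 194 and SOX2- replicate 1 gave 184). Between SOX2+/MKI67+ and SOX2+/MKI67- cells they numbered 30 (17 higher, 13 lower), and 55 with equal peak numbers, 18 with the stricter threshold, 11 with a peak in at least 4 libraries, 322 (258 higher, 64 lower) with the libraries of those groups only and 31 to 78 with a library left out (78 without SOX2+ replicate 4, 73 and 63 without SOX2+/MKI67+ replicates 1 and 2, 48 and 75 without SOX2+/MKI67- replicates 1 and 2). The causes were not tested.

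Same-numbered libraries of the SOX2 sort had correlated deviations of -0.187 to 0.339. SOX2+ replicates 2 (0.339) and 3 (0.066) correlated best with their own number, and SOX2+ replicates 1 and 4 did not. In the MKI67 sort, with 2 libraries per group, the values mirror each other (0.062 and -0.062) and cannot inform on pairing. Whether the numbers pair the libraries is thus not settled. With the replicate number as a block, 56 genes passed between SOX2+ and SOX2- cells and 27 between SOX2+/MKI67+ and SOX2+/MKI67- cells.

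Directions of small differences turned. Between SOX2+ and SOX2- cells, leaving out libraries gave -0.186 to 0.134 for S1pr1, -0.032 to 0.374 for S1pr3, 0.315 to 0.917 for S1pr5, which kept its sign, -0.292 to 0.202 for Mfsd2b, -0.174 to 0.193 for Spns2, -0.151 to 0.241 for Sgpl1 and -0.007 to 0.004 for Sgpp1. S1pr1 was 0.25 with equal peak numbers, 0.146 with no term for list length and 0.024 with a window of 50 kb. Between SOX2+/MKI67+ and SOX2+/MKI67- cells it gave -0.032 to 0.211 for S1pr1, -0.011 to 0.819 for S1pr3 and -0.078 to 0.995 for S1pr5. There S1pr5 was -0.035 with the stricter threshold and S1pr1 -0.01 with the libraries of those groups only. In the same comparison S1pr2 was -0.835 with the stricter threshold, -0.593 with the libraries of those groups only and 0 with equal peak numbers. Depth is unknown, and a weak peak can be missing from a short list.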
